A study of Rattus norvegicus with 7 samples.

Results

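The subject is a set of 10 genes that mark macrophages: 2 endocytic scavenger receptors (Cd163, Mrc1), the 3 chains of complement C1q (C1qa, C1qb, C1qc) and 5 genes of macrophage identity (Csf1r, Cd68, Lyz2, Adgre1, F13a1). Their NCBI Gene numbers are 312701 (Cd163), 291327 (Mrc1), 298566 (C1qa), 29687 (C1qb), 362634 (C1qc), 307403 (Csf1r), 287435 (Cd68), 25211 (Lyz2), 316137 (Adgre1) and 60327 (F13a1). They were chosen by gene symbol, with earlier results of these data known. All 10 were found among the 17246 genes of the deposited table and were among the 13709 genes tested. The samples were meibomian glands, the lipid-secreting glands of the eyelid, of wild-type female Sprague-Dawley rats aged 3 months. The 4 control libraries came from rats labelled as having no treatment, and the 3 UVB libraries from rats whose shaved upper eyelids received ultraviolet B light (UVB) at 300 mJ/cm2, for 5 min daily over 5 days. The labels print that protocol for every sample, and they do not say whether control lids were shaved, how long after the last session the glands were taken, or whether each library came from a separate animal, so p-values measure the spread between these libraries. The comparison asked how transcripts of the gland differ after eyelid irradiation.

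Macrophages are phagocytes that live in most tissues and are also renewed from blood monocytes. Their survival depends on signalling through the CSF1 receptor, and resident cells of skin and connective tissue commonly carry the mannose receptor and the haemoglobin receptor CD163 on their surface. C1q, the recognition molecule of the classical complement pathway, is assembled from chains A, B and C, which tissue macrophages make in large amounts; it binds immune complexes and dying cells.

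Expression is given as CPM, counts scaled to the library size with TMM factors, for comparing libraries within a gene, and as TPM, the transcript abundance corrected for length, for comparing genes. Libraries held 20680237 to 28784941 counts. They carry the letters a to d (control) and a to c (UVB), which pair nothing, and values are given in that order. Genes of the secreting cells were abundant in every library, with a summed level of 48923 to 62044 TPM for 12 meibocyte markers, while the 10 macrophage genes summed to 178.1 to 499.8 TPM. By the quasi-likelihood test of edgeR, at a Benjamini-Hochberg adjusted p under 0.05, 863 of the tested genes were called higher (6.30%) and 924 lower (6.74%).

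The promoter sequences are shown for members that stand for the different outcomes: Cd163, which changed most; C1qa and C1qb, chains of a single protein; and Adgre1, whose level did not pass the test. Each is the 250 bases before the annotated start in RefSeq's GRCr8 table, which held an entry for 9 of the 10 members (C1qc had none). In GRCr8 these stretches are chr4:158770524-158770773 on the plus strand for Cd163, chr5:154419934-154420183 on the minus strand for C1qa, chr5:154407828-154408077 on the minus strand for C1qb and chr9:2329190-2329439 on the plus strand for Adgre1. Capitals mark the letters TGCTGA or their reverse complement TCAGCA, the half-site bound by MAF family factors.

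Cd163: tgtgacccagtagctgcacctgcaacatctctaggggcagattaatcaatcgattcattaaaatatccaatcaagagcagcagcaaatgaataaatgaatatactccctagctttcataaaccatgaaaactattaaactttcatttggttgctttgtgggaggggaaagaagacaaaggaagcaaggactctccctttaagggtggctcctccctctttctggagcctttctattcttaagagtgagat
C1qa: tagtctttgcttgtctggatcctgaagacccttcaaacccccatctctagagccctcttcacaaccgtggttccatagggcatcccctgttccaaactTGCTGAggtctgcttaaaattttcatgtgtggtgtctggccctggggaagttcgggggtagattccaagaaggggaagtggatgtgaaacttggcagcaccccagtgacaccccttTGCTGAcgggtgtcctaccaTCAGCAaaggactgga
C1qb: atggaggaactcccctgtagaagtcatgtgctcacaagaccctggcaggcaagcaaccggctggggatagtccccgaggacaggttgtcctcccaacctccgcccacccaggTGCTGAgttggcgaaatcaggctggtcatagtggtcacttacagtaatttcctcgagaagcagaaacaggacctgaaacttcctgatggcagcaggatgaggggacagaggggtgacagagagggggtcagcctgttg
Adgre1: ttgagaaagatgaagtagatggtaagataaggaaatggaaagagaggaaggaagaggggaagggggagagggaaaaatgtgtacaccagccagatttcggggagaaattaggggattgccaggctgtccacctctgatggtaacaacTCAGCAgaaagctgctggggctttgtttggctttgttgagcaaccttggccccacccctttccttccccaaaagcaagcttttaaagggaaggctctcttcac

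These letters occurred 3 times in the C1qa stretch and once each in those of C1qb and Adgre1, so in 3 of the 9 members. On either strand they were present in 15.1% of 33469 promoters of the same length. The core letters bound by PU.1, GAGGAA, were present on either strand in 7 of the 9 members, all but Cd163 and C1qa, and in 23.3% of all promoters. The letters of the motifs differ, and a match describes letters only. Both motifs were chosen after the values were seen. C1qb, C1qc and C1qa lie next to each other in GRCr8.

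Both scavenger receptor genes and 2 of the 3 C1q genes rose after UVB, and no identity gene passed the test. Of the 10 members, 4 passed the test as higher and 0 as lower, against 6.30% and 6.74% of all genes tested. The same 4 (Cd163, Mrc1, C1qb and C1qc) had every UVB library above every control, which held for 12.8% of all genes tested (26.6% were apart in either direction, 13.8% with UVB lower). The median log2 fold change of the 10 was 0.71, beside -0.0058 over all genes tested. Because the members were chosen with earlier results of these data known, these contrasts describe the set and do not test it. In whole glands, a change in the number of cells of a type and a change in RNA per cell cannot be told apart.

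**Figure D1:**
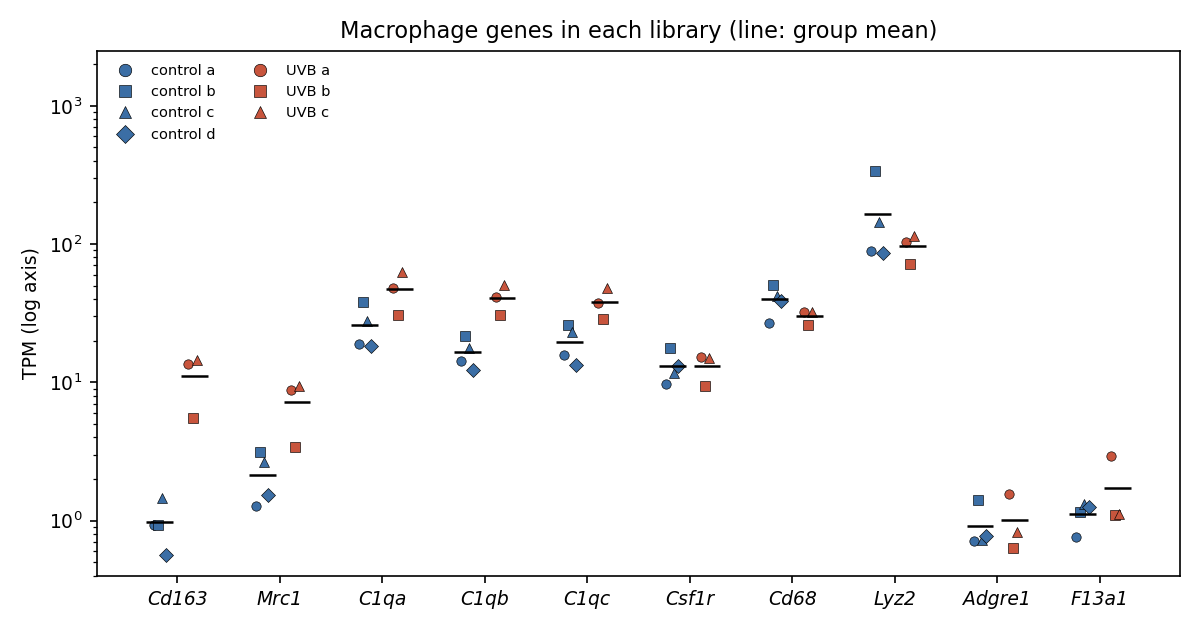
TPM of each of the 10 macrophage genes (log axis) in the 4 control (blue) and 3 UVB (red) libraries, with a shape for each library and a line at the group mean. Cd163 lay at 0.56 to 1.46 TPM in the controls and 5.54 to 14.58 TPM after UVB, while the groups overlapped for Csf1r.

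Cd163 encodes the scavenger receptor that takes up complexes of haemoglobin and haptoglobin. It measured 2.61, 2.33, 3.83 and 1.496 CPM in the 4 controls and 35.1, 14.8 and 38.8 CPM in the UVB libraries. Every UVB library was above every control, and UVB b was the lowest of the 3. The means were 2.57 ± 0.966 (SD, n = 4) and 29.6 ± 12.9 CPM (SD, n = 3), with a log2 fold change of 3.50 (edgeR adjusted p = 0.00402, SE 0.40), or 11.3-fold. The counts behind these values were 35 to 111 in a control library and 383 to 1007 in a UVB library. The gene passed in all 17 alternative fits.

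Mrc1 encodes the mannose receptor, a lectin that clears glycoproteins and collagen fragments. Its levels were 4.15, 9.90, 8.38 and 5.00 CPM in the 4 controls and 27.8, 11.2 and 30.5 CPM in the UVB libraries. The groups did not overlap, although UVB b exceeded control b by little. The means were 6.86 ± 2.73 (SD, n = 4) and 23.2 ± 10.5 CPM (SD, n = 3), with a log2 fold change of 1.75 (edgeR adjusted p = 0.0336, SE 0.41), or 3.36-fold. The call was lost when any of control a (adjusted p = 0.0664), control c (0.0732), control d (0.0953), UVB a (0.0809) or UVB c (0.0675) was left out. An uncharacterised locus and Mir511 overlap Mrc1 in GRCr8, and without strand in the sources used here their reads could not be separated from it.

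The C1q chains are read together because each C1q molecule contains all 3. C1qb measured 8.45, 12.7, 10.2 and 7.22 CPM in the 4 controls and 23.5, 18.2 and 29.1 CPM after UVB. Every UVB library exceeded every control. Its means were 9.62 ± 2.35 (SD, n = 4) and 23.6 ± 5.47 CPM (SD, n = 3), with a log2 fold change of 1.29 (edgeR adjusted p = 0.00833, SE 0.21), and it passed in all 17 alternative fits.

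C1qc measured 10.8, 17.4, 15.1 and 9.44 CPM in the 4 controls and 24.7, 19.2 and 31.5 CPM after UVB, again without overlap. The log2 fold change was 0.93 (edgeR adjusted p = 0.0376, SE 0.24). This call was lost without control a (adjusted p = 0.0782), control c (0.069), control d (0.0753), UVB a (0.0852) or UVB c (0.0959). C1qa measured 10.6, 20.9, 14.7 and 9.91 CPM in the 4 controls and 25.4, 16.9 and 33.3 CPM after UVB. Its groups overlapped, because UVB b lay below control b, and its log2 fold change of 0.85 (SE 0.31, 95% interval 0.13 to 1.56) had an edgeR adjusted p of 0.114. DESeq2 was the alternative under which C1qa passed (adjusted p = 0.0158).

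Summed over the 3 chains, C1q transcripts ran from 43.93 to 85.98 TPM in the controls and from 90.08 to 160.9 TPM after UVB. C1qb took 29.2%, 25.2%, 26.0% and 28.0% of the summed TPM in the controls and 32.5%, 34.1% and 31.3% after UVB. It thus held a larger share in every UVB library than in any control, by 5.54 percentage points (exact two-sided permutation test, p = 0.0286, the smallest that 35 splits can give; adjusted over 3 shares, 0.0857). The share of C1qa was lower by a mean difference of -4.34 percentage points (exact permutation p = 0.0857, adjusted 0.129) and that of C1qc by -1.20 (exact permutation p = 0.343, adjusted 0.343).

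**Figure D2:**
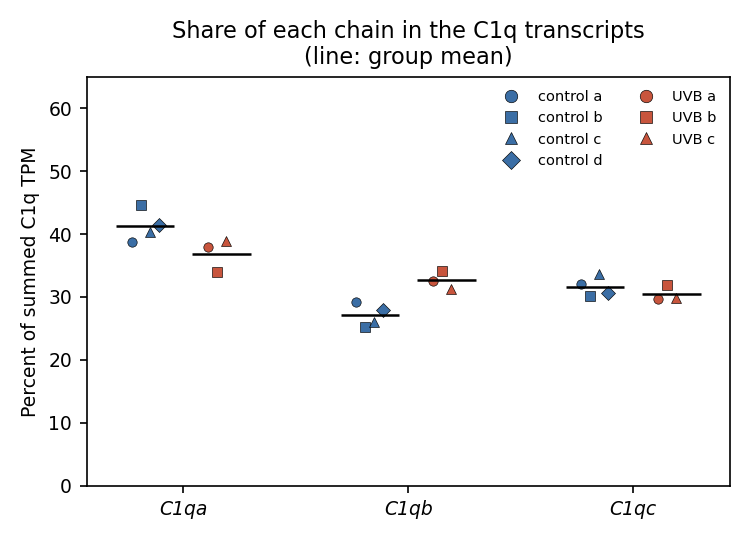
Percent of the summed C1q TPM carried by C1qa, C1qb and C1qc in each control (blue) and UVB (red) library, with a line at the group mean. C1qb held 25.2% to 29.2% in the controls and 31.3% to 34.1% after UVB, and the C1qc shares overlapped.

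None of the identity genes passed the test. Csf1r encodes the receptor for CSF1 and IL-34 on which macrophages depend. It measured 21.8, 39.2, 24.6 and 29.4 CPM in the 4 controls and 32.1, 20.9 and 32.6 CPM after UVB. The means of 28.8 ± 7.62 (SD, n = 4) and 28.6 ± 6.63 CPM (SD, n = 3) gave a log2 fold change of -0.0093 (edgeR adjusted p = 0.985, SE 0.23). The 95% interval of -0.53 to 0.52 leaves out a change of the size of Cd163 or Mrc1. Its sign turned positive in the 3 TPM fits and without control b, control d or UVB b, with no call in any of them.

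Cd68 encodes a glycoprotein of phagocyte lysosomes. It measured 18.0, 33.4, 27.2 and 25.8 CPM in the 4 controls and 20.8, 17.2 and 21.0 CPM after UVB, so that the 3 UVB libraries lay below controls b, c and d but not all below control a. The log2 fold change was -0.41 (edgeR adjusted p = 0.186, SE 0.19), and it passed as lower when control a was left out (-0.55, adjusted p = 0.0248). Lyz2 encodes the lysozyme of macrophages and other myeloid cells. Its levels of 65.8, 248.3, 103.2 and 63.5 CPM in the controls spread more widely than the 74.9, 53.8 and 83.3 CPM after UVB. The log2 fold change of -0.77 (edgeR adjusted p = 0.359, SE 0.51) moved to -0.14 without control b. Counts of Lyz2 were not whole in 5 libraries, so its level is uncertain; Lyc2, a close relative, is its neighbour in GRCr8.

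Adgre1, which encodes the F4/80 surface protein, was scarce: 1.4, 2.75, 1.38 and 1.54 CPM in the 4 controls and 2.94, 1.2 and 1.62 CPM after UVB. The log2 fold change was 0.11 (edgeR adjusted p = 0.87, SE 0.37) and turned to -0.32 without UVB a. F13a1, which encodes the A chain of clotting factor XIII and marks macrophages of the dermis, measured 1.68, 2.52, 2.83 and 2.78 CPM in the controls. After UVB it measured 6.30, 2.44 and 2.43 CPM, so UVB a alone stood above the controls. Its log2 fold change of 0.58 (edgeR adjusted p = 0.318, SE 0.36) became -0.016 without UVB a. Both genes overlap other loci in GRCr8, a pseudogene and an uncharacterised locus for Adgre1 and Tpi1l2 for F13a1. With 30 to 133 counts per library, their 95% intervals were wide, from -0.71 to 0.93 for Adgre1 and from -0.24 to 1.401 for F13a1.

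**Figure D3:**
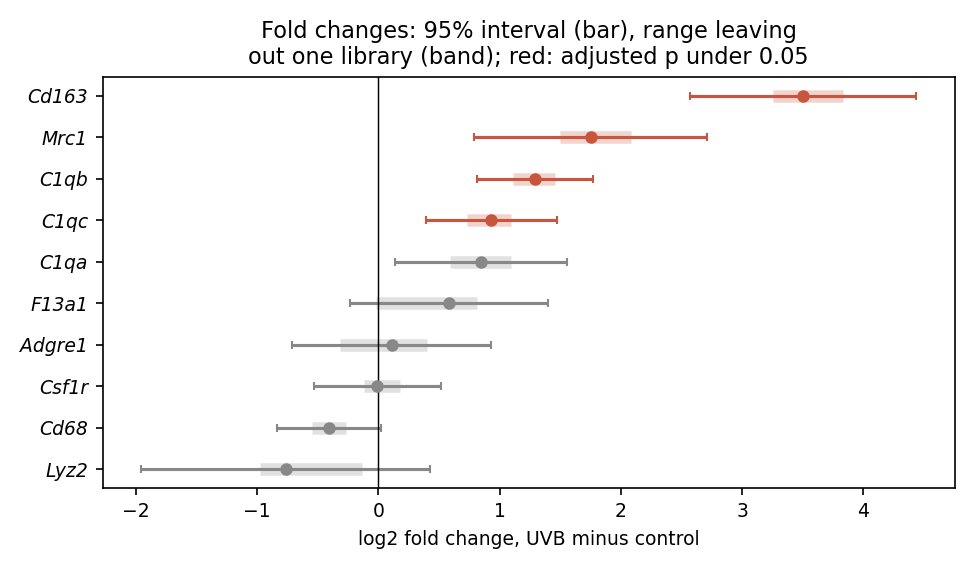
Log2 fold change of each of the 10 genes (point) with its 95% interval (bar) and the range when each library is left out in turn (band); red marks an adjusted p under 0.05. Cd163, Mrc1, C1qb and C1qc passed, and the intervals of the 5 identity genes include 0.

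By TPM, which corrects for length, Lyz2 was highest and Adgre1 lowest in both groups, and the order between them differed in part. In the controls Lyz2 (164.2 ± 119.3 TPM, SD, n = 4) was followed by Cd68 (39.8 ± 9.94), C1qa (25.8 ± 9.39), C1qc (19.6 ± 5.92), C1qb (16.5 ± 4.13), Csf1r (13.04 ± 3.34), Mrc1 (2.15 ± 0.881), F13a1 (1.13 ± 0.254), Cd163 (0.97 ± 0.370) and Adgre1 (0.908 ± 0.336). The ranges of neighbours were apart at 2 steps only, between Lyz2 and Cd68 and between Csf1r and Mrc1. After UVB the order was Lyz2 (96.9 ± 22.0 TPM, SD, n = 3), C1qa (47.0 ± 16.0), C1qb (40.7 ± 9.83), C1qc (38.1 ± 9.60), Cd68 (30.1 ± 3.77), Csf1r (13.2 ± 3.26), Cd163 (11.2 ± 4.93), Mrc1 (7.24 ± 3.32), F13a1 (1.72 ± 1.06) and Adgre1 (1.01 ± 0.495). Neighbours were apart at 3 steps, Lyz2 and C1qa, Cd68 and Csf1r, and Mrc1 and F13a1. Cd68 had the higher TPM than each C1q chain in every control and the lower one in every UVB library, though its range overlapped that of C1qa in the controls and those of all 3 after UVB. Cd163 overlapped the range of Csf1r after UVB but lay under it in each of the 3 libraries.

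Each gene was also set against Csf1r within its own library. The TPM ratio of Cd163 to Csf1r was 0.0953, 0.0528, 0.125 and 0.0427 in the 4 controls and 0.891, 0.588 and 0.971 after UVB. On the log2 scale the ratio differed by 3.47 between groups. The ratios of Mrc1 (1.70), C1qb (1.29), C1qc (0.96) and C1qa (0.86) were also higher in every UVB library than in any control, although the CPM of C1qa overlapped. The ratio of Cd68 to Csf1r was lower in every UVB library (-0.39). For Cd163, Mrc1, C1qa, C1qb and Cd68 the exact two-sided permutation p was 0.0286, the smallest possible, and 0.0514 after adjustment over 9 ratios, so none passed 0.05. The exact permutation p was 0.0571 for C1qc (adjusted 0.0857). The ratios of Lyz2 (-0.56, adjusted p = 0.331), F13a1 (0.47, 0.354) and Adgre1 (0.091, 0.8) overlapped between groups (exact permutation tests). Cd163 also gained on Mrc1: their TPM ratio ran from 0.299 to 0.732 in the controls and from 1.53 to 1.62 after UVB.

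**Figure D4:**
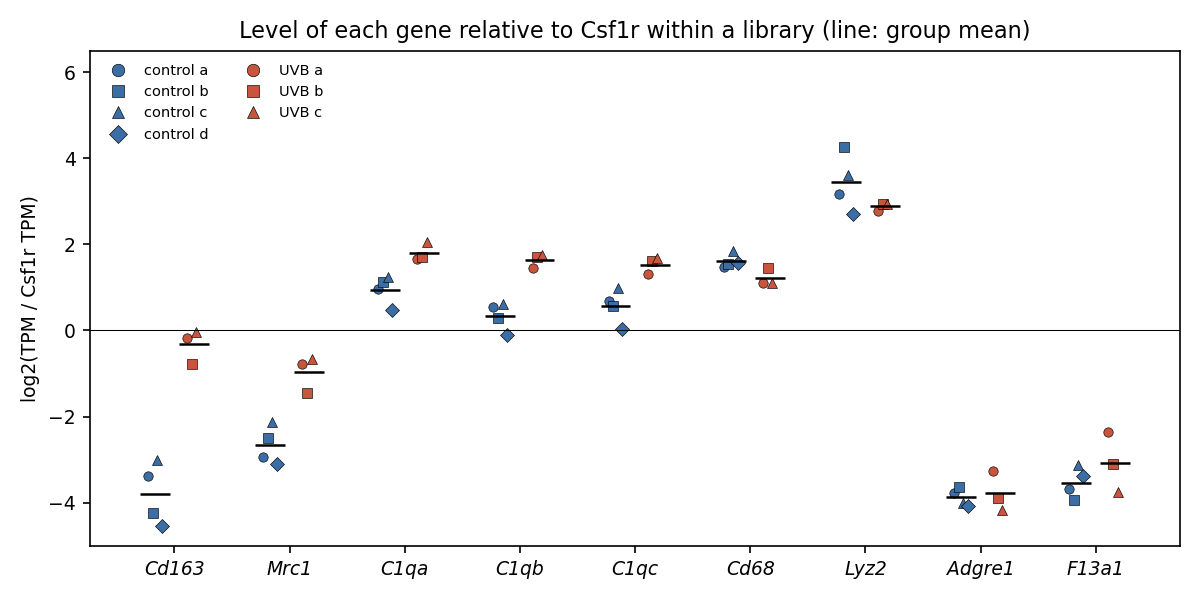
Log2 of the TPM of each gene divided by the TPM of Csf1r in the same library, for control (blue) and UVB (red) libraries, with a line at the group mean. Cd163 lay at -4.55 to -3.00 in the controls and at -0.77 to -0.043 after UVB, and the groups overlap for Lyz2, Adgre1 and F13a1.

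The members tended to be high or low in the same libraries. Control b was the highest control for 8 of the 10 genes, and UVB b was the lowest UVB library for 9 of the 10. The same held for 22 tested genes of the whole myeloid lineage, where control b was highest for 21 and control a and UVB b were each lowest in their group for 18. Over all genes tested, control b was the highest control for 26.3% and UVB b the lowest UVB library for 35.3%. Leaving out control b moved Lyz2 most, and leaving out either library kept the calls of all 4 called members.

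Of the 22 tested genes of the wider myeloid lineage, 3 were called higher and 1 lower, with a median log2 fold change of 0.14. The leukocyte phosphatase gene Ptprc measured 7.34 ± 3.05 (SD, n = 4) without UVB and 7.10 ± 1.74 CPM (SD, n = 3) after UVB (log2 fold change -0.045, SE 0.31, edgeR adjusted p = 0.942). Its sign turned in 6 of 17 alternatives, as did that of Ctss. The signalling adaptor gene Tyrobp (0.57, adjusted p = 0.319), the microglia and macrophage gene Aif1 (0.58, 0.341), the protease gene Ctss (-0.061, 0.917) and the lipid receptor gene Trem2 (-0.60, 0.512) also missed the threshold. The called genes were Cd14, the lipopolysaccharide co-receptor (0.89, SE 0.13, adjusted p = 0.00453), the Fc receptor genes Fcgr2b (0.98, 0.0381) and Fcgr1a (1.01, 0.0491), and as lower the galectin gene Lgals3 (-0.25, 0.0404). Lgals3 had a control mean of 422.9 CPM, far above the 7.34 CPM of Ptprc, and which cells it came from was not tested. The calls of both Fc receptors and of Lgals3 were lost in most fits that left out a library, and Cd14 kept its call in all 7.

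Among 14 tested genes of other scavenger receptors and resident macrophages, 5 were called higher and 2 lower, with a median of 0.23. Stab1, which encodes the clearance receptor stabilin-1, rose from 9.45 ± 1.39 (SD, n = 4) to 21.2 ± 6.26 CPM (SD, n = 3), with a log2 fold change of 1.17 (edgeR adjusted p = 0.0105, SE 0.20). Clec10a, a galactose-binding lectin gene, rose by 1.24 (SE 0.23, adjusted p = 0.0115), and the growth factor gene Igf1 by 0.97 (SE 0.17, adjusted p = 0.00924). The receptor kinase gene Tyro3, which takes part in clearing dying cells, fell by 0.55 (SE 0.081, adjusted p = 0.00539). Each of these 4 passed in all 17 alternatives. Tyro3 had a control mean of 127.5 CPM, above the 28.8 CPM of Csf1r. Which cells the Tyro3 transcripts came from was not tested. Msr1, the class A scavenger receptor gene, was below the count filter, at 0.284 ± 0.144 (SD, n = 4) and 0.571 ± 0.287 CPM (SD, n = 3). Lyve1 and Ccr2 were not analysed here. Stab1, Il34, C1r, Fcgr1a, Plac8, Nos2, Hexa, Csf1, Spi1, Hmox1 and Msr1 each overlap another locus in GRCr8, so their levels are uncertain where reads were counted without strand.

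Csf1, a ligand of the CSF1 receptor, had a mean of 21.8 CPM in both groups, with a log2 fold change of -0.00077 (edgeR adjusted p = 0.998, SE 0.12). Il34, the other ligand, fell from 17.8 ± 4.46 (SD, n = 4) to 8.82 ± 1.75 CPM (SD, n = 3), with a log2 fold change of -1.02 (SE 0.22, adjusted p = 0.0223), and lost its call in 3 of the 7 fits without a library. Csf2rb, the shared beta chain of the receptors for GM-CSF, IL-3 and IL-5, rose by 1.67 (SE 0.29, adjusted p = 0.00965). Spi1, which encodes PU.1, measured 4.40 ± 2.01 and 4.68 ± 1.04 CPM (log2 fold change 0.092, adjusted p = 0.879). In all, 2 of 15 tested genes of this list were called higher and 1 lower, with a median of 0.040.

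Of 13 tested genes of C1 partners and receptors, 6 were called higher and 0 lower, with a median log2 fold change of 0.38. C1r and C1s encode the proteases that C1q activates. C1r rose from 62.5 ± 7.04 to 103.1 ± 16.4 CPM (SD, n = 4 and 3; 0.72, SE 0.12, edgeR adjusted p = 0.00797) and C1s by 0.69 (SE 0.14, adjusted p = 0.0195). The call of C1s was lost in 2 of the 7 fits without a library, and its counts were not whole in 3 libraries. Serping1, the gene of the inhibitor that removes C1r and C1s from the complex, rose from 48.7 ± 7.64 to 119.1 ± 21.6 CPM (SD, n = 4 and 3; 1.29, SE 0.15, adjusted p = 0.00312). C1qbp, which encodes a mitochondrial protein that can bind C1q, rose by 0.38 (SE 0.057, adjusted p = 0.00594). C1r, C1s and Serping1 are also made by fibroblasts, and of 11 fibroblast markers 5 were called higher and 1 lower, with summed levels of 1064 to 1623 TPM in the controls and 1364 to 2141 TPM after UVB. The part of those cells in the result was not tested.

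**Figure D5:**
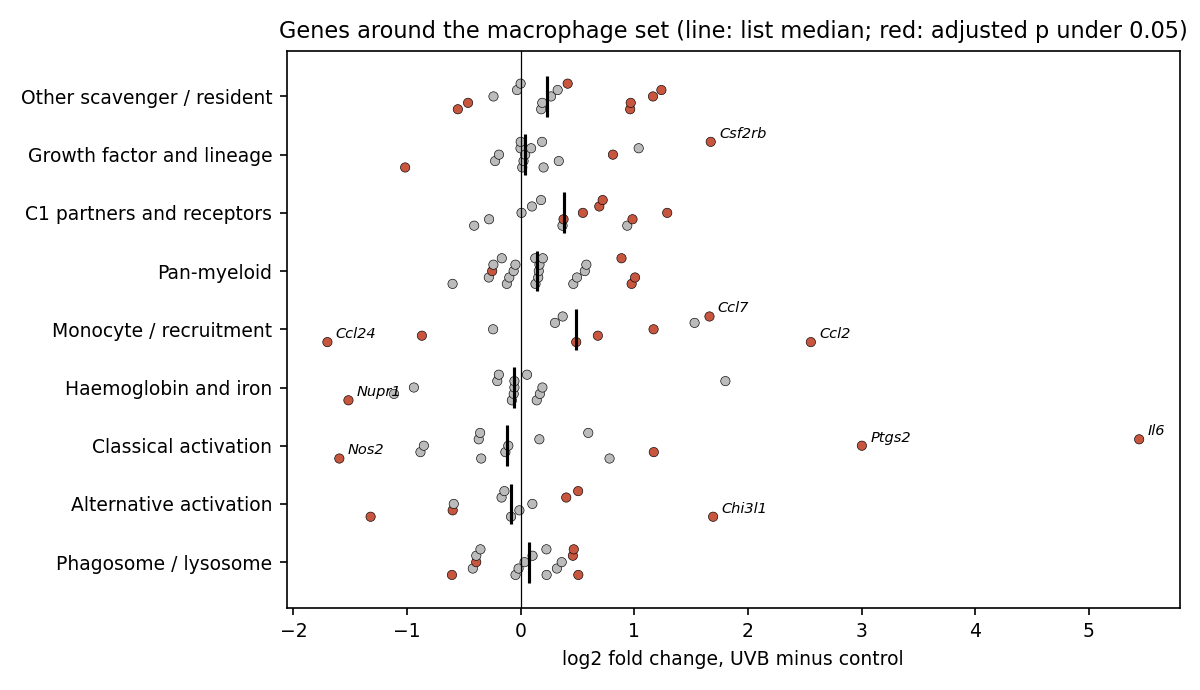
Log2 fold change of each tested gene in 9 lists around the macrophage set (points; red marks an adjusted p under 0.05) with a line at each list's median. Medians lay between -0.12 for classical activation and 0.49 for monocyte recruitment, and called genes occur on both sides of 0 in 7 of the 9 lists.

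Of 11 tested genes of monocytes and their recruitment, 5 were called higher and 2 lower, with a median of 0.49. Ccl2, the gene of the main monocyte-attracting chemokine, measured 1.07, 1.21, 0.552 and 0.641 CPM in the 4 controls and 8.30, 3.68 and 3.28 CPM after UVB. The log2 fold change was 2.55 (edgeR adjusted p = 0.00702, SE 0.40). The hyaluronan receptor gene Cd44 rose by 0.68 (SE 0.11, adjusted p = 0.0071), and Plac8 fell by 0.87 (SE 0.15, adjusted p = 0.0101).

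Of 14 tested genes of classical activation, 3 were called higher and 1 lower (median -0.12). The prostaglandin synthase gene Ptgs2 rose from 0.604 ± 0.0779 to 4.89 ± 3.36 CPM (SD, n = 4 and 3; 3.00, SE 0.44, edgeR adjusted p = 0.00594). Il6 had 0 to 2 counts in the controls and 82, 15 and 12 counts in UVB a to c (adjusted p = 0.0247). The costimulator gene Cd80 rose by 1.17 (adjusted p = 0.039), and the nitric oxide synthase gene Nos2 fell from 13.2 ± 3.06 to 4.35 ± 2.66 CPM (-1.60, SE 0.38, adjusted p = 0.0318). The calls of Il6, Cd80 and Nos2 were lost in 4, 6 and 5 of the 7 fits without a library. Of 11 tested genes of alternative activation, 3 were called higher and 2 lower (median -0.084). The chitinase-like gene Chi3l1 (1.69, SE 0.30, adjusted p = 0.0143) and the IL-4 receptor gene Il4r (0.51, SE 0.11, adjusted p = 0.0165) rose, the transglutaminase gene Tgm2 (-0.60, SE 0.10, adjusted p = 0.00786) and the chemokine gene Ccl22 (-1.32, SE 0.27, adjusted p = 0.0163) fell, and the arginase gene Arg1 missed the threshold (-0.59, SE 0.24, adjusted p = 0.146). The call of Ccl22 was lost in 1 of the 7 fits without a library.

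CD163 takes up haemoglobin, whose haem is then broken down. Of 14 tested genes of haemoglobin, haem and iron handling, edgeR called 0 higher and 1 lower, with a median of -0.058, and DESeq2 called 1 higher. Hmox1, the gene of the inducible enzyme that breaks down haem, measured 54.5 ± 15.2 (SD, n = 4) and 52.1 ± 15.2 CPM (SD, n = 3; log2 fold change -0.061, SE 0.25, edgeR adjusted p = 0.902). The called gene was the stress regulator gene Nupr1 (-1.52, SE 0.17, adjusted p = 0.003), whose counts were not whole in any library. The control mean of Hmox1 was above the 28.8 CPM of Csf1r. Which cells the transcripts of this haemoglobin and iron list came from was not tested. Of 16 lysosomal genes, 3 were called higher and 2 lower (median 0.070). Grn, the progranulin gene (0.46, SE 0.096, adjusted p = 0.0167), and Npc2, a cholesterol carrier gene (0.47, adjusted p = 0.0327), rose, and the hexosaminidase gene Hexa fell (-0.39, adjusted p = 0.0198). The calls of Grn, Npc2 and Hexa were lost in 2, 5 and 4 of the 7 fits without a library.

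Profiles most like those of the members were found by the root mean square difference of log2 CPM over the 7 libraries, each profile centred on its control mean, among 11309 other genes with a mean count of at least 50. Among the 5 nearest to the mean of the 3 C1q chains were Clec10a (0.16), Apod (0.177), Folr2 (0.194) and Slc7a7 (0.208), against a median of 0.768 over all these genes. Csf1r lay at 0.718 and Mrc1 at 0.532 from the same profile. Clec10a, for example, measured 4.34, 6.58, 5.66 and 4.23 CPM in the 4 controls and 13.6, 8.32 and 15.0 CPM after UVB. Nearest to Cd163 were Prg4 (0.411), Sprr1b (0.464), Timp1 (0.575), Cpxm1 (0.576) and Hdc (0.762), with a median of 2.32 over all genes. None of the other members was as near to Cd163: Mrc1 lay at 1.21, C1qb at 1.46 and Csf1r at 2.32. Since profiles were centred on the control mean, these distances largely follow differences in fold change. They are no separate evidence of likeness between genes.

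The endothelial list had 7 of 11 tested markers called higher and 0 lower, with summed levels of 178.7 to 196.1 TPM in the controls and 256.0 to 286.0 TPM after UVB. Mast cell markers had 3 of 9 called higher, with 27.45 to 41.97 TPM and 48.35 to 59.57 TPM, and Mcpt1 at 0 in every library. Of 10 tested markers of dendritic and Langerhans cells, 3 were called higher and 2 lower. Neutrophil markers had 3 of 6 called higher and 1 lower, with 7 of 13 measured below the count filter and Elane at 0 in every library; their summed level (1593 to 1794 and 1852 to 2123 TPM) includes S100a8 and S100a9, which keratinocytes also make. T cell markers had 2 of 10 called higher and 0 lower, with 4 of the 10 above 0 and a median log2 fold change of -0.086. B cell markers had 0 of 3 called higher. Lymphatic markers had 1 of 6 called higher and 1 lower, meibocyte markers 1 of 12 and 3, keratinocyte markers 2 of 10 and 0, melanocyte markers 0 of 7 and 3, Schwann cell markers 0 of 7 and 2, muscle markers 1 of 7 and 0, and red cell markers 0 of 2 and 0. The part of these cells in the levels of the macrophage genes was not tested.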

How the data were processed

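RNA of meibomian glands was sequenced in 4 control and 3 UVB libraries. The authors deposited expected counts (estimated counts per gene, not normalised, 12.5% of values not whole) and TPM values. FastQC, Trimmomatic, DRAGEN, Picard and the build rn7 are named in the submitters' processing notes without role or version; counting program, annotation and strand are not given in the sources used here. Gene names with unquoted commas moved cells in 2281 rows, and each row was therefore read from its right end; 5 rows without a value were left out. Libraries of the same group differed by more than sampling noise in every pair (chi-square per degree of freedom at least 10.5).

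The design had been written for counts as deposited or rounded; they were rounded. The test was the quasi-likelihood test of edgeR 4.0.16 under R 4.3.3 (TMM factors, filterByExpr, robust), adjusted by Benjamini-Hochberg over 13709 genes, with 0.05 as threshold. Standard errors are the log2 fold change divided by the root of F. DESeq2 1.42.0 and limma-voom (limma 3.58.1) were alternatives, as were other scalings and filters, unrounded counts, limma on log2(TPM + 1) or log2(TPM + 0.1), with or without a mean TPM of at least 1, and leaving out each library. On simulated counts, 200 genes with a mean count of at least 50 were changed 2-fold. Of these, edgeR recovered 90% with 6.25% of 192 calls false, and DESeq2 94% with 17.5% of 228 false. In the same counts limma-voom recovered 88.5% with 5.85% of 188 false, and limma on log2 values 89.5% with 5.79% of 190 false. Recovery was not measured for genes with lower counts. Ratios and shares were tested by exact two-sided permutation over 35 splits.

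The members and lists were chosen with earlier results of these data known, and the motifs after the values were seen. Of 313 listed symbols, 34 were not analysed here. Besides the members, the text names up to 4 called genes with the smallest p per list, fixed genes, and the 5 nearest profiles, of which some are not reported here; S100a8 and S100a9 fall outside this rule and were named after their values were seen. RefSeq promoters are of GRCr8, not the authors' build.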

Additional observations from a re-analysis of the deposited data

Results flagged for a closer look

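Within the 4 controls, 64 values were examined for a library far from the rest, and 3 had one, where chance gives about 1 in 20 (3.2). Control b was the highest for Adgre1, with 2.754 CPM while the others lay between 1.38 and 1.538, the gap being 0.885 of the range. It was also the highest for Chi3l1, with 15.87 CPM while the others lay between 12.63 and 13.08 (0.861 of the range). Control a was the highest for Cd80, with 0.9802 CPM while the others lay between 0.483 and 0.5601 (0.845 of the range). Groups of 3 were not examined in this way.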

How the results depend on the processing

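Cd163 and C1qb kept their direction and call in all 17 alternatives. Mrc1 lost its call with no low-count filter (1.753) and on log2(TPM + 1) without a filter (1.334), as C1qc did in the latter (0.9424), where 2 members were called higher and 521 genes of all lower. C1qa gained one under DESeq2 (0.8524). The sign of uncalled genes turned for Csf1r in the TPM fits (0.01599 on log2(TPM + 1) with or without the filter, 0.01685 on log2(TPM + 0.1)), for Csf1 under DESeq2 (0.006018), RLE factors (0.00415), library size alone (0.0005993), no filter (0.002497) and unrounded counts (0.002494), for Ctss under limma-voom (0.01022) and the TPM fits (0.01209, 0.0161 and 0.01209), and for Ptprc under the same (0.01072, 0.02544, 0.04846 and 0.02544).

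Counts of called list genes also moved. With library size alone, myeloid genes had 1 higher and 0 lower, lysosomal genes 1 and 1, and monocyte genes 3 higher. Monocyte genes had 3 higher with no filter, 2 higher and 1 lower at a mean count of at least 50, 2 higher on log2(TPM + 1) and on log2(TPM + 0.1), and 3 on log2(TPM + 1) without a filter. In the latter, lysosomal genes had 1 higher and 0 lower, other scavenger genes 1 lower and growth factor genes 0 lower. Myeloid genes had 0 lower in the 3 TPM fits. Classical activation genes had 1 higher at a mean count of at least 50, 0 on log2(TPM + 1) and 1 on log2(TPM + 0.1). DESeq2 called 1 haemoglobin gene higher.

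Without each library in turn, log2 fold changes ran from 1.499 to 2.087 for Mrc1, 0.7345 to 1.097 for C1qc, -0.1179 to 0.1777 for Csf1r, -0.5471 to -0.2699 for Cd68, -0.3175 to 0.399 for Adgre1 (its ratio to Csf1r, -0.1665 to 0.288) and -0.0162 to 0.8172 for F13a1. They ran from -0.1045 to 0.07795 for Csf1, -0.05213 to 0.4458 for Spi1, -0.3112 to 0.1541 for Hmox1, -0.2126 to 0.2603 for Ptprc, -0.8498 to 0.1047 for Trem2 and -0.2357 to 0.2363 for Ctss. Calls of all genes ran from 421 to 927 higher and 430 to 971 lower, and of members from 2 to 4 higher and 0 to 1 lower. By list they ran from 3 to 4 higher and 1 to 2 lower (other scavenger), 0 to 1 lower (growth factor), 3 to 5 higher (C1 partners), 1 to 4 higher and 0 to 1 lower (myeloid), 2 to 4 higher and 1 to 2 lower (monocyte), 0 to 1 higher (haemoglobin), 1 to 2 higher and 0 to 1 lower (classical), 1 to 3 lower (alternative), and 0 to 4 higher and 0 to 3 lower (lysosomal). The causes were not tested, beyond the fewer samples in these fits. No paired analysis was possible because no replicate number of the labels could be tied to a column. Adgre1 and F13a1 rest on 30 to 133 counts a library, which limits their precision.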
